A study of Rattus norvegicus with 25 samples.

Results

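The microRNAs (miRNAs) described here are both arms of the rat miR-151 hairpin (rno-miR-151-3p and rno-miR-151-5p), both arms of the related miR-28 hairpin (rno-miR-28-3p and rno-miR-28-5p), and rno-miR-3586-3p. They are 5 of the 764 mature miRNAs listed. The 4 arms were chosen by family name, and rno-miR-3586-3p was selected on its measured counts, which equalled those of rno-miR-151-5p. The prefix rno-, for rat, is left out below. Small RNA was sequenced from mitochondria of the red gastrocnemius, an oxidative hindlimb muscle, in 25 libraries from male Wistar-Kyoto rats. The trained group, 13 rats aged 5 weeks at the start, underwent 4 weeks of treadmill running with 5 sessions (days) weekly, and the sedentary group, 12 rats of the same age, was put on a treadmill standing still for as long. Mitochondria of both groups were isolated with magnetic beads from a kit made for mouse and incubated with RNase A before lysis. Neither whole muscle nor undigested mitochondria were sequenced, so where in the preparation a counted miRNA lay is not known. Each library is named by its group and its title number.

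A miRNA hairpin is cut into a 5p and a 3p strand, and usually one of them is kept by an Argonaute protein as the guide while the other is degraded. Bases 2 to 8 of the guide, the seed, choose its targets. The miR-151 and miR-28 hairpins both descend from LINE-2 transposable elements and lie in introns of genes for focal adhesion proteins, Ptk2 (focal adhesion kinase) for miR-151 and Lpp for miR-28. In skeletal muscle, miR-151-3p is known to repress Atp2a2, the calcium pump of slow fibres. miR-28-5p is known as a repressor of the thrombopoietin receptor.

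The RefSeq miRNA table of the assembly GRCr8 held sequences for 2 of the 5 members. They are shown with both arms of miR-708, the seed relative of miR-28, because the 2 hairpins share a seed on the 5p arm only. Seeds are in capitals, and each sequence is written 5′ to 3′.
miR-28-5p: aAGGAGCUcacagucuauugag
miR-708-5p: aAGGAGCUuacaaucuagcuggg
miR-28-3p: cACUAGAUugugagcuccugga
miR-708-3p: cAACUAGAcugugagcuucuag

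The 5p arms of miR-28 and miR-708 carried the same seed, and no other mature rat miRNA in the table carried it. Their letters matched at 16 of 22 positions. The 3p arms matched at 17 of 21 positions when shifted by 1 base, and this shift gave them different seeds. The seed of miR-28-3p was found in no other mature miRNA of the table. In RefSeq's gene table of GRCr8 the miR-151 hairpin lay inside that of miR-3586, which is listed as Mir151b, and both lay within the bounds of Ptk2. The miR-28 hairpin lay within the bounds of Lpp.

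Total miRNA counts ranged from 26793 to 202388 per trained library (median 72553) and from 12181 to 186006 per sedentary library (median 76240). These totals include 17 pairs of entries with nearly the same counts, such as miR-1-3p and miR-3571 (241423 and 241335 over all libraries). Both entries of each pair enter the totals, shares, CPM values and ranks given here. Muscle markers (miR-1-3p, miR-206-3p, miR-133a-3p and others, 5 of 7 with a count) took 11.0% to 27.1% of counts in trained (median 23.6%) and 9.15% to 32.5% in sedentary libraries (median 16.4%). The cardiac and slow-fibre markers miR-208a-3p and miR-208b-3p were at 0. Of the other cell types, smooth muscle markers (4 of 4 with a count) took at most 5.55% and erythrocyte markers (1 of 4 with a count, miR-486, with miR-451-5p and both arms of miR-144 at 0) at most 5.27%. Endothelial markers (1 of 2) took at most 1.80%, connective tissue markers (3 of 4) at most 0.870% and leukocyte markers (3 of 6) at most 0.517%.

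miR-151-3p, the main product of the miR-151 hairpin, was the most counted member and ranked 13 of the 764 miRNAs by total counts. It held 42569 counts, 2.33% ± 1.08 of a library (SD, n = 25), and was counted in all 25 libraries. On the CPM scale (count relative to the library total), the trained libraries ran from 7919 through a median of 21840 to 46559, and the sedentary ones from 8389 through 21821 to 47136. The groups overlapped over nearly their whole range. The highest values were in sedentary library 15 and trained libraries 17 and 18, and the lowest in trained library 21, sedentary library 29 and trained library 25. Sedentary library 16 came next below the highest, at 39488 CPM, ahead of trained library 2 at 27967 CPM. The highest values thus carried consecutive title numbers, 15 to 18, across both groups. What the title numbers stand for is not stated in the sources used here, and their part in these values was not tested. With 269 counts in its shallowest library, sedentary 19, the value there was 22084 CPM (95% Wilson interval 19621 to 24848).

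Its spread between libraries was small for this data set. The coefficient of variation of CPM was 46.4%, the tenth lowest of 76 tested miRNAs, whose median was 86.6%. More abundant miRNAs varied less in general, as the plot of spread against level shows.

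**Figure D1:**
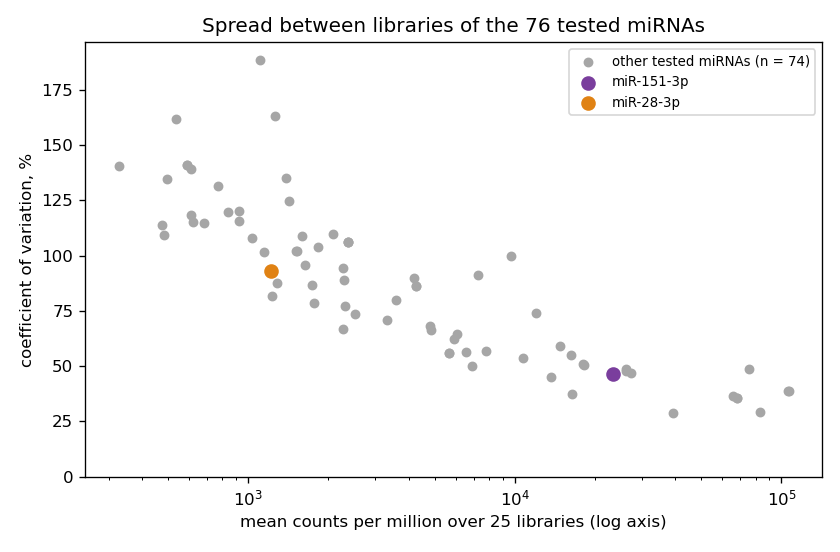
Each point is 1 of the 76 tested miRNAs, with its mean CPM over 25 libraries on a log x axis and its coefficient of variation in percent on the y axis. miR-151-3p (purple, 46.4%) lies among the abundant miRNAs of low spread, and miR-28-3p (orange, 93.0%) among scarcer miRNAs of high spread.

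miR-151-5p, the opposite strand of the same hairpin, was scarce. It held 446 counts in all and was counted in 12 of 25 libraries, 5 of 13 trained and 7 of 12 sedentary. Trained libraries ran from 0 through a median of 0 to 1536 CPM, and sedentary ones from 0 through 18.7 to 550. Trained library 14 alone gave 188 counts, 42.2% of the total, followed by 79 in trained library 21, 52 in sedentary library 32 and 36 in sedentary library 3. The deepest library, trained 27, had 0 counts of 202388, which allows up to 14.8 CPM, while trained library 6 had 10 counts of 26906, or 372 CPM. Such limits and intervals cover counting error only.

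miR-3586-3p had the same count as miR-151-5p in 25 of 25 libraries and is no independent measurement. How reads matching several entries were counted is not stated in the sources used here, and the 2 entries cannot be told apart. Its opposite strand, miR-3586-5p, was at 0 in every library.

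The 3p strand outnumbered the 5p strand of miR-151 in 25 of 25 libraries. Over all libraries 99.0% of the hairpin's counts were on the 3p arm. In the 12 libraries with a miR-151-5p count, the 3p count was 13.6 to 3378 times the 5p count. The 5p share was highest in trained library 14, at 6.85% (95% Wilson interval 5.96% to 7.86%), and next in trained library 21, at 5.54% (4.46% to 6.85%). In trained library 18 it was 0 of 3253 counts, with an upper bound of 0.118%. The interval of trained library 18 lay below those of libraries 14 and 21, which overlapped each other, and over all libraries the 5p share varied far more than counting error gives (chi-square per degree of freedom 65.9 over 24 degrees of freedom). Reads were amplified by PCR, with no molecular identifiers named in the protocols, and are not independent molecules.

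**Figure D2:**
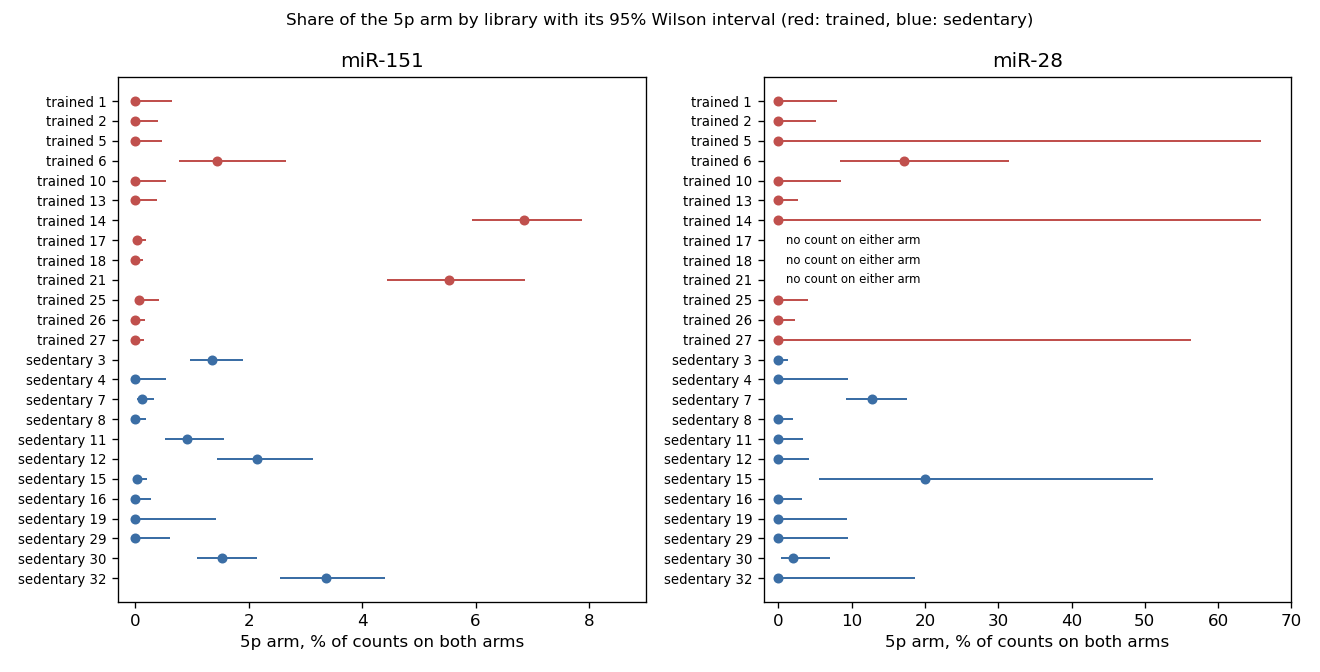
The x axis gives the 5p arm as a percentage of counts on both arms, for miR-151 on the left and miR-28 on the right (the x scales differ), with 1 row per library. Points are shares and bars 95% Wilson intervals, and most miR-151 libraries lie at or near 0 while trained libraries 14 and 21 lie above 5%.

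miR-28-3p, the main product of the miR-28 hairpin, ranked 61 with 1971 counts, 0.122% ± 0.113 of a library (SD, n = 25). Trained libraries ran from 0 through a median of 600 to 3425 CPM, and sedentary ones from 127 through 1227 to 3293 CPM. In the trained group 6 libraries lay below every sedentary library: libraries 17, 18 and 21 at 0, library 27 at 14.8, library 14 at 16.3 and library 5 at 51.4 CPM. The other 7 trained libraries ran from 600 to 3425 CPM, and of these library 13 alone lay above the highest sedentary one. The zeros were not in shallow libraries. They came from totals of 72553, 73449 and 170233 counts, which allow up to 41.3, 40.8 and 17.6 CPM. At least 1 library at 0 with a limit more than 10 times under the miRNA's own median was found for 31 of the 76 tested miRNAs. A single 0 of this kind is thus common in this table. miR-28-3p had 3 such libraries, and most of the 31 miRNAs had fewer. Those with more included miR-30c-2-3p with 7, miR-146b-5p with 5 and miR-92a-3p with 4. Beside the lower trained median of miR-28-3p, medians of the marker sums are given for trained and sedentary libraries, in that order. The erythrocyte list rested on miR-486 alone, at 1.70% (range 1.01% to 5.27%) and 3.10% (1.00% to 4.75%). With miR-451-5p and both arms of miR-144 at 0, it cannot be read as a measure of red cells. For leukocytes the medians were 0.115% (0 to 0.419%) and 0.258% (0.0013% to 0.517%). The medians were 2.42% (0.805% to 3.48%) and 3.22% (0.831% to 5.55%) for smooth muscle, 0.490% (0.152% to 0.855%) and 0.537% (0.249% to 1.80%) for endothelium, and 0.369% (0.0523% to 0.870%) and 0.312% (0 to 0.669%) for connective tissue. The ranges of the groups overlapped for each list, and the part of these markers in the miR-28-3p values was not tested.

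miR-28-5p, which carries the seed shared with miR-708-5p, was nearly absent. It had 45 counts in 4 libraries: 34 in sedentary library 7, 7 in trained library 6, and 2 each in sedentary libraries 15 and 30. One library thus held 75.6% of its counts. Among all 131 miRNAs with a total of 40 to 1000 counts, the median share of the highest library was 53.2% (quartiles 38.4% and 78.0%), so a total resting on a single library was common at this level.

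**Figure D3:**
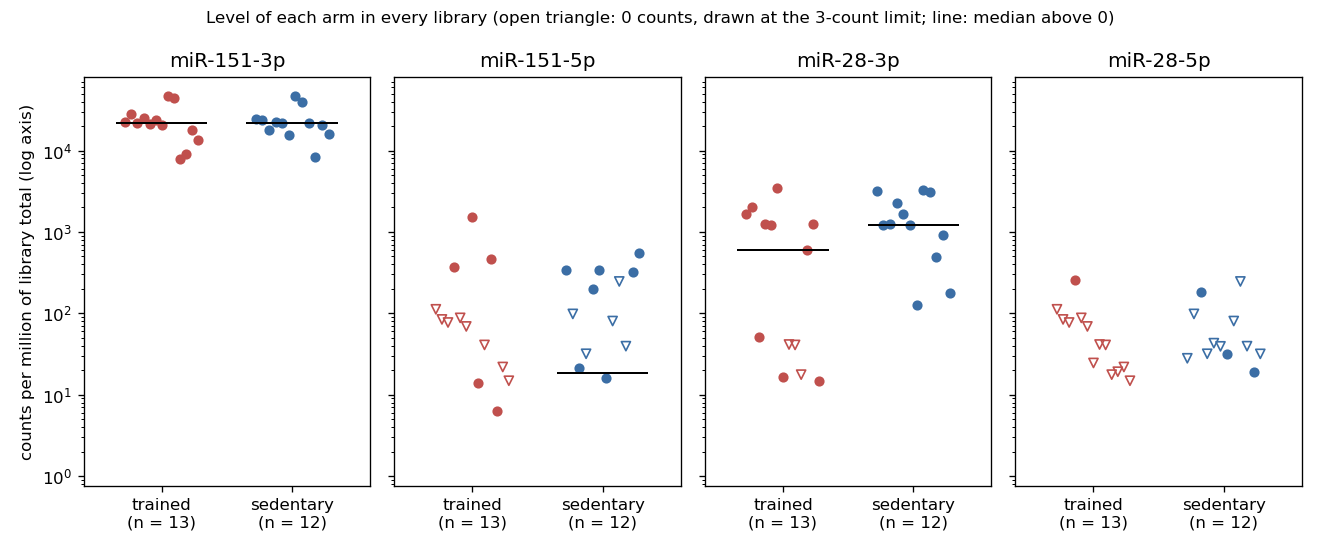
The y axis gives CPM on a log scale for 4 miRNA arms, in trained (red, n = 13) and sedentary (blue, n = 12) libraries. Filled points are libraries with a count, open triangles libraries at 0 drawn at the limit of 3 counts, and lines medians above 0; miR-28-3p has 6 trained libraries below the lowest sedentary one.

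The 3p strand also led in miR-28, in 22 of the 22 libraries with a count on either arm. It took 97.8% of the pooled counts. Where miR-28-5p was counted, its share was 1.98% in sedentary library 30 (95% Wilson interval 0.545% to 6.93%), 12.8% in sedentary library 7 (9.33% to 17.4%), 17.1% in trained library 6 (8.53% to 31.3%) and 20.0% in sedentary library 15 (5.67% to 51.0%). With 8 and 2 counts on its arms, the last of these is barely determined.

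Read almost only from the 3p arm, both hairpins had many neighbours in this table. Of 111 hairpins with both arms listed and at least 100 counts, 47 had over 90% of counts on the 3p arm, 49 had under 10%, and 15 lay between. All counts were on the 3p arm in 34 hairpins and on the 5p arm in 43, some of them abundant, as miR-1 with 241423 and 0 counts. Whether opposite arms were emptied before deposit is not stated in the sources used here, so these shares may not be those of the strands in the sample. These hairpins include entries with copied counts. Among them is miR-3586 at place 26, whose 446 counts on the 3p arm equal those of miR-151-5p. miR-151 was at place 39 in the order of 3p share, between miR-27b (99.2%) and miR-199a (98.7%). miR-28 was at place 42, between miR-22 (98.4%) and miR-152 (97.6%).

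**Figure D4:**
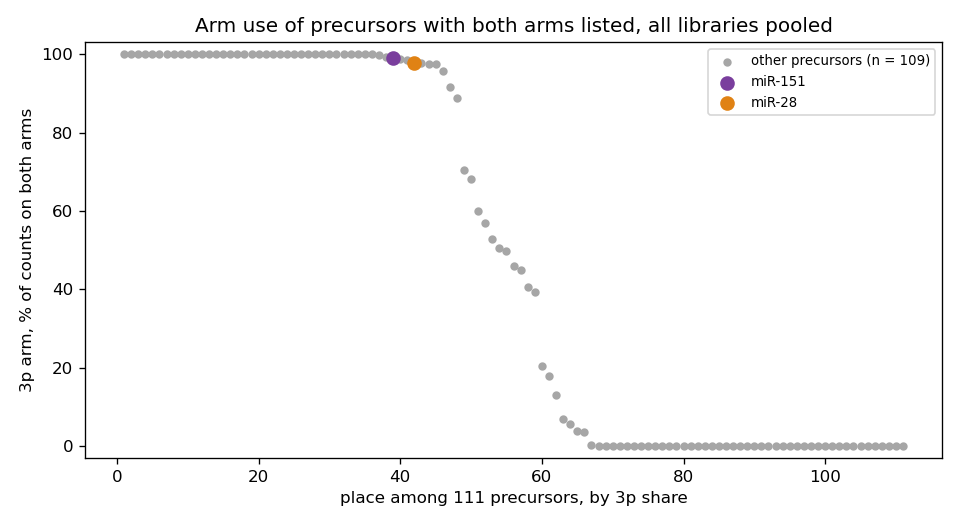
The x axis is the place of each of 111 hairpins in the order of 3p share, and the y axis its 3p arm as a percentage of counts on both arms, all libraries pooled. miR-151 (purple, 99.0%) and miR-28 (orange, 97.8%) sit near the edge of the upper plateau of hairpins read almost only from their 3p arm.

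The relatives of miR-28 and miR-151 gave little signal. miR-708-3p had 113 counts, 110 of them in trained library 26, and miR-708-5p, with the seed of miR-28-5p, was at 0. Both arms of miR-325, another hairpin of LINE-2 descent, were at 0. Of 5 listed relatives 1 had a count and 0 were tested. 0 of 2094773 counts allows up to 1.43 CPM over all libraries, and it is not stated in the sources used here whether entries were emptied before deposit.

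The main comparison asked whether these miRNAs differed after endurance training. 2 of the 5 members, miR-151-3p and miR-28-3p, had enough counts to be tested, and neither passed. The background was the same: 0 of 76 tested miRNAs were called (percent called 0.0; edgeR quasi-likelihood test, Benjamini-Hochberg adjusted p under 0.05). At an unadjusted p under 0.05 there were 1 of 76 by edgeR, 8 of 260 by DESeq2 and 14 of 76 by limma-voom, and the last 2 tools also called 0 after adjustment. The 3 members left out, miR-151-5p, miR-3586-3p and miR-28-5p, reached 10 counts in 8, 8 and 1 libraries.

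The mean level of miR-151-3p was 23273 ± 11487 CPM (SD, n = 13) after training and 23249 ± 10494 CPM (SD, n = 12) without it. The log2 fold change, trained minus sedentary, was 0.17 (SE 0.30, 95% interval -0.43 to 0.77, edgeR adjusted p = 0.971). A 2-fold rise or fall lies outside that interval, which belongs to the fit of all 25 libraries. Without sedentary library 15 the log2 fold change was 0.53 (SE 0.29), with a 2-fold rise less than 2 SE away. The sign turned with the scaling, since total counts alone gave -0.0017 in place of the TMM value. The median over all 76 miRNAs was -0.0081 with TMM and -0.29 with total counts.

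The mean level of miR-28-3p was 891 ± 1059 CPM (SD, n = 13) after training and 1576 ± 1148 CPM (SD, n = 12) without it. The log2 fold change was -0.71 (SE 0.97, 95% interval -2.65 to 1.23, edgeR adjusted p = 0.971). A change of 4-fold downward or 2-fold upward lies inside that interval. limma-voom, which works on log values, gave -2.42 (SE 1.03, unadjusted p = 0.0223), and this value did not pass after adjustment either.

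**Figure D5:**
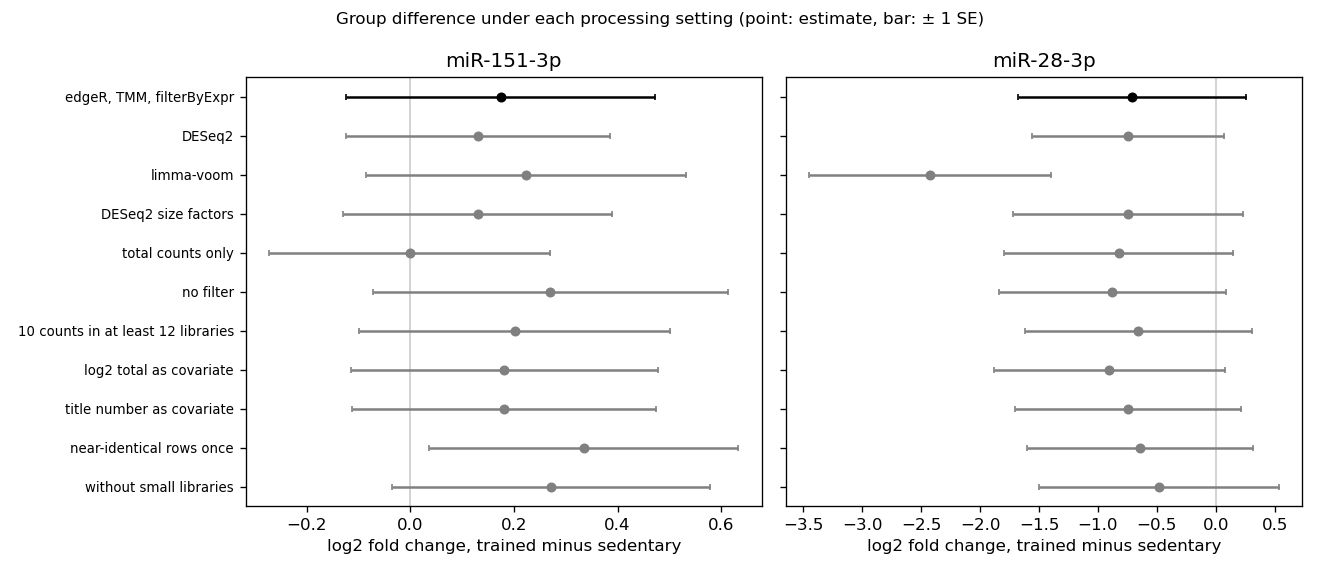
The x axis is the log2 fold change, trained minus sedentary, for miR-151-3p (left) and miR-28-3p (right; the x scales differ), with 1 row per processing setting, the edgeR fit in black, bars of 1 SE either way, and the last row leaving out sedentary library 19. miR-151-3p stays within 0.34 of 0, and miR-28-3p is negative in each row, farthest with limma-voom at -2.42.

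Detection was compared as well, since 3 arms were too scarce for a test of level. For miR-28-3p, 7 of 13 trained against 11 of 12 sedentary libraries had 10 counts or more (Fisher's exact test, two-sided, p = 0.0730, adjusted p = 1.0 over 260 miRNAs). At 100 CPM or more it was found in 7 of 13 and 12 of 12 (Fisher's exact test, p = 0.0149, adjusted p = 1.0). 4 of 260 miRNAs, 1.54%, had an unadjusted p under 0.05 at that threshold, and 0 were called after adjustment (percent called 0.0). The 260 include miRNAs found at 100 CPM in every library, as miR-151-3p, or in very few, as miR-28-5p (1 of 13 and 1 of 12). Such miRNAs cannot reach an unadjusted p under 0.05, which keeps that share low. miR-151-5p reached 10 counts in 3 of 13 and 5 of 12 libraries (Fisher's exact test, p = 0.411, adjusted p = 1.0), and miR-28-5p in 0 of 13 and 1 of 12 (Fisher's exact test, p = 0.480, adjusted p = 1.0).

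Arm use did not pass the test either. The log2 ratio of 3p to 5p counts of miR-151, with 0.5 added to each, averaged 9.67 ± 3.03 over trained libraries (SD, n = 13) and 8.59 ± 2.59 over sedentary libraries (SD, n = 12). The difference was 1.07 (permutation test, two-sided, p = 0.349, or 0.960 when adjusted for 27 hairpins). Where the 5p count is 0, this ratio is set by the 3p count and the added 0.5, and is no measured ratio or bound. As a plain share the sign turned: the 3p arm held 98.9% ± 2.32 in trained and 99.2% ± 1.11 in sedentary libraries (permutation test, p = 0.714). For miR-28, in the libraries with at least 10 counts over both arms, the log2 ratio averaged 6.65 ± 2.11 over trained libraries (SD, n = 7) and 6.27 ± 2.29 over sedentary ones (SD, n = 12), a difference of 0.38 (permutation test, p = 0.719, or 0.960 when adjusted). The percent called among the 27 hairpins was 0.0. They include both miR-378a and miR-3557, whose main strands had nearly the same counts (136920 and 137458).

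The main strands of both hairpins were set side by side in each library. In 17 of 25 libraries miR-151-3p had 6.85 to 22.0 times the counts of miR-28-3p. These libraries were set apart by a ratio under 25, a boundary chosen after the values were seen. Their limited range follows from that choice and is no result about the 2 strands. In the other 8 the ratio was above the boundary or miR-28-3p had 3 counts or fewer. The ratio was 87.9 in sedentary library 32 and 370.0 in sedentary library 15. In trained libraries 17, 18 and 21, where miR-28-3p was at 0, it was at least 1126, 1084 and 449.3 against a floor of 3 counts in each library. Trained libraries 5, 14 and 27 had 2, 2 and 3 counts of miR-28-3p beside 850, 2557 and 2753 of miR-151-3p. The 3 libraries highest in miR-151-3p were among the 7 lowest in miR-28-3p, while sedentary library 16, the fourth highest in miR-151-3p, was second highest in miR-28-3p.

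Over all 25 libraries the log2 CPM of the 2 strands, scaled by TMM, had Pearson's r of -0.28 (permutation p = 0.179) and Spearman's rho of 0.13 (permutation p = 0.545). Without the 2 libraries farthest from the median of miR-151-3p, trained 17 and sedentary 15, r was -0.086 (permutation p = 0.693, n = 23). Leaving out 1 library, r was -0.13 without trained library 17, -0.14 without trained library 18 and -0.28 without sedentary library 15. With log2 CPM on total counts the sign turned, at r of 0.040 (permutation p = 0.850). Within groups r was -0.40 in trained (permutation p = 0.189, n = 13) and 0.069 in sedentary libraries (permutation p = 0.814, n = 12). This was the 1 relation computed, since the other 3 considered involve an arm at 0 in most of the libraries.

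Of the tested miRNAs outside the 2 hairpins, the one most like miR-151-3p across the 25 libraries was miR-127-3p (Spearman's rho 0.55 of TMM-scaled log2 CPM), followed by miR-3473 (0.50) and miR-134-5p (0.39). miR-127 and miR-134 come from the imprinted Dlk1-Dio3 cluster. Other miRNAs of that cluster were not examined as a set, and a relation of miR-151-3p to the cluster was not tested. For miR-28-3p the closest were miR-30c-2-3p (0.51), miR-125a-5p (0.45) and miR-328a-3p (0.44), of which miR-30c-2-3p was at 0 in 7 libraries. These values describe the libraries, which share their depth and scaling with every miRNA compared.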

How the data were processed

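The authors deposited raw counts per mature miRNA, whole numbers with empty cells that were read as 0. They also deposited a normalized signal, which was the raw table with each library divided by its own factor (relative deviation 1.59e-09) and served only for that check. DESeq2 1.36 and fastp 0.20.0 are the tools in the submitters' processing notes. No aligner, counting tool, strand setting or genome build is stated in the sources used here, and coordinates are left out. CPM is the raw count scaled to a library total of 1e+06. Groups were tested with edgeR 4.0.16 (R 4.3.3; TMM, filterByExpr with a minimum count of 10 and a minimum total of 15, 76 miRNAs kept, 96.9% to 99.0% of counts), adjusted by Benjamini-Hochberg over all 76 at a threshold of 0.05. Single values were tested with two-sided permutation tests of 100000 resamples (numpy 2.4.6) and Fisher's exact test (scipy 1.17.1). Fisher p-values were adjusted over 260 miRNAs and arm ratios over 27 hairpins, and not over the members alone as first designed. Alternatives used DESeq2 1.42.0, limma 3.58.1 (voom), other scalings, filters and covariates, and left out libraries. The tests were tried on simulated data. The labels name no litter or batch, so neither could be modelled, and p-values measure only the spread between these libraries. That spread may hold an order by title number. With title number as a linear covariate 0 miRNAs were called. The log2 fold changes were then 0.18 for miR-151-3p and -0.74 for miR-28-3p. A linear term does not follow a run such as that of libraries 15 to 18 in miR-151-3p. The members and lists were chosen with earlier results of these data known. Named miRNAs were the members, 5 relatives by seed or LINE-2 descent, the 3 tested miRNAs most like each tested member by Spearman's rho, and the neighbours in arm share.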

Additional observations from a re-analysis of the deposited data

How the results depend on the processing

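No paired analysis was possible because trained and sedentary rats share no title number. The 0 calls over all miRNAs held in 9 of 10 other settings and in the 25 that left out a library (range 0 to 0). Among these, keeping near-identical entries once left 68 miRNAs tested. The exception was no filter on low counts, with 66 calls (25.4% of 260), among them none of the members. The value of miR-151-3p was -0.0017 with total counts only, the 1 of 10 other settings that turned its sign, and it ranged from -0.0031 to 0.53 when each library was left out. It fell below 0 without trained library 17 (-0.0011) and without sedentary library 7 (-0.0031). That of miR-28-3p stayed negative, from -2.42 with limma-voom to -0.48 without sedentary library 19, the only library under 0.25 of the median total, and from -1.20 to -0.48 over the libraries left out. The difference in miR-151 arm ratio ranged from 0.73 to 1.57 over libraries left out, and as a share of the 3p arm it was -0.28 percentage points. That of miR-28 ranged from -0.025, without sedentary library 15, to 1.12, and was -0.87 with 1 count over both arms as the minimum, a setting that lets in libraries with 2 or 3 counts. Pearson's r of miR-151-3p with miR-28-3p was 0.040 with log2 CPM on total counts and ranged from -0.42 to -0.13 over libraries left out, with p under 0.05 without trained library 21 (permutation p = 0.0393). The difference in detection of miR-28-3p at 10 counts ranged from -46.2 to -33.3 percentage points, with the lowest p without sedentary library 15 (Fisher's exact test, p = 0.0162), and kept an adjusted p above 0.05. The cause of these changes was not tested. Depth limits miR-151-5p and miR-28-5p most: a 0 in a single library allowed 14.8 to 246 CPM.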
